A study of Mus musculus with 12 samples.

Results

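The transcription factor genes followed in natural killer (NK) cells of the bone marrow were Myb, Bach2, Satb1, Foxp1, Bcl6, Ikzf2, Tox, Runx3, Ets1 and Nfil3. They were chosen by name, as factors known from early lymphoid or memory lymphocytes, with earlier results of these data known. Each was found by its mouse Ensembl gene ID. All 10 were present among the 37991 genes measured, and all 10 were among the 12384 genes expressed highly enough to be tested. NK cells positive for NK1.1 and CD49b had been sorted from C57Bl/6 mice, and their RNA was sequenced in bulk, with 3 libraries in each of 4 groups. DKO cells came from Ncr1Cre Id2F/F Tcf7F/F mice, in which both Id2 and Tcf7 are flanked by loxP sites and Cre can delete them. Id2KO cells came from Ncr1Cre Id2F/F mice and Tcf1KO cells from Ncr1Cre Tcf7F/F mice. Ctrl cells came from mice with floxed alleles and no Cre, named as Id2F/F in one label and as Id2F/F or Id2F/F Tcf7F/F in another. Ncr1Cre is active in cells that express Ncr1, the gene of the activating receptor NKp46, so every comparison with Ctrl also carries the presence of Cre. The labels give no ages, and they call the 3 samples of a genotype independent without saying that each was a separate mouse, so spread between samples, which may be technical, is all that the p-values can measure.

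Id2 encodes an inhibitor that binds E proteins, a family of DNA-binding lymphoid regulators, and keeps them from their target sites. Tcf7 encodes TCF-1, an HMG-box factor of early T cells, innate lymphoid progenitors and memory T cells. The genes followed here are named in the same settings: Myb in progenitors, Bach2, Bcl6, Foxp1 and Satb1 in naive and memory lymphocytes, and Nfil3, Tox, Ets1 and Runx3 in the making of NK and other innate lymphoid cells. Ikzf2 encodes Helios, a zinc finger protein of the Ikaros family that is best known from regulatory T cells.

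Levels are in FPKM, fragments divided by the length of the gene and the size of the library, given per library in the order of replicates 1, 2 and 3 or as mean ± SD over n = 3 libraries. Log2 fold changes and their standard errors (SE) are on the log2(FPKM + 1) scale, which understates the change of low genes, and adjusted p-values come from limma, adjusted by Benjamini-Hochberg over the 12384 tested genes, with a threshold of 0.05. Reads recovered from the values summed to between 13975523 and 20208160 per library, and between 36 and 11354 reads lay behind a single value of the genes followed here. Id2 averaged 42.3 ± 6.08 FPKM in DKO, 18.0 ± 1.04 in Id2KO, 114 ± 11.6 in Tcf1KO and 152 ± 25.0 in Ctrl cells. Tcf7 averaged 62.4 ± 9.94 FPKM in DKO, 84.8 ± 6.33 in Id2KO, 34.98 ± 4.65 in Tcf1KO and 40.9 ± 4.81 in Ctrl cells. Id2 RNA fell in the groups with Cre and floxed Id2 (limma, adjusted p = 1.52e-05 for Id2KO and 0.00269 for DKO against Ctrl). Between those groups Id2 was higher in DKO than in Id2KO (1.18 ± 0.16, limma, adjusted p = 0.0205), so DKO against Id2KO also carries a difference in Id2 RNA. Tcf7 RNA did not pass in Tcf1KO against Ctrl (log2 fold change -0.22 ± 0.16, limma, adjusted p = 0.999), and a whole-gene value cannot check a deletion inside the gene, so directions in Tcf1KO and DKO libraries rest on their labels. The NK1.1 gene Klrb1c, the CD49b gene Itga2 and Ncr1 were detected in all 12 libraries. The B cell factor Pax5 reached at most 0.25 FPKM. Markers of other blood cells were present and differed between libraries. Erythroid markers summed to between 169 FPKM (Id2KO replicate 1) and 4836 FPKM (Ctrl replicate 2). Myeloid and neutrophil markers summed to between 99.0 FPKM (Id2KO replicate 1) and 4226 FPKM (Tcf1KO replicate 1).

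Per gene length, Ets1, Runx3 and Ikzf2 were the most abundant of the 10 over the 12 libraries, at percentiles 93.4, 92.1 and 90.1 of the tested genes by mean FPKM, and Bach2 and Bcl6 were the least abundant, at percentiles 45.3 and 40.2. In Ctrl cells the mean levels ran from Ets1 (29.9 ± 4.94 FPKM) through Runx3 (26.002 ± 7.64), Nfil3 (24.0 ± 15.4), Ikzf2 (12.4 ± 0.205), Tox (9.63 ± 2.28), Myb (8.63 ± 0.783), Satb1 (7.35 ± 0.629), Foxp1 (5.59 ± 0.669) and Bcl6 (3.48 ± 0.567) to Bach2 (3.11 ± 0.640). Ctrl libraries of neighbours in this order did not overlap between Nfil3 and Ikzf2, Ikzf2 and Tox, Satb1 and Foxp1, or Foxp1 and Bcl6, and the other neighbours overlapped. Ikzf2 held the first place in DKO and the second in Tcf1KO cells, against the fifth in Id2KO and the fourth in Ctrl cells.

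**Figure D1:**
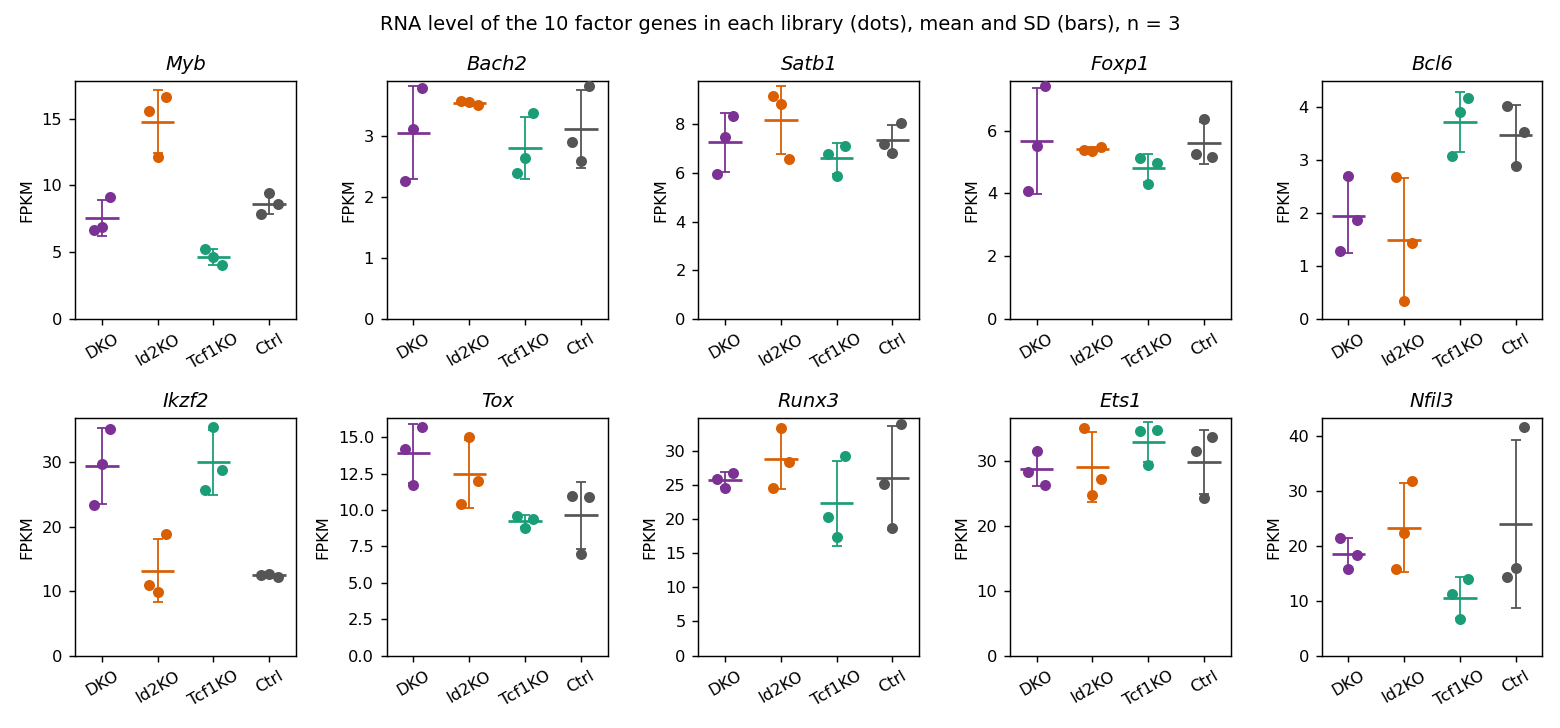
FPKM of the 10 genes in each of the 12 libraries, 1 panel per gene, with DKO, Id2KO, Tcf1KO and Ctrl from left to right; points are libraries and bars are group means with the SD of 3 libraries. Ikzf2 stands higher in all DKO and Tcf1KO libraries (23.4 to 35.5 FPKM) than in all Id2KO and Ctrl libraries (9.80 to 18.8 FPKM), while the Satb1, Bach2, Runx3 and Ets1 libraries overlap in each of the 5 comparisons.

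No gene of the 10 passed the adjusted threshold in any of the 5 comparisons between pairs of groups. With limma's test, 0 of 10 were called in Id2KO against Ctrl, where 0.178% of all tested genes were, and 0 of 10 in Tcf1KO against Ctrl, where 0.0% were. The same count was 0 of 10 in DKO against Ctrl (0.145% of all tested genes), DKO against Id2KO (0.121%) and DKO against Tcf1KO (0.0565%). At an unadjusted p under 0.05, 2 of 10 passed in Id2KO against Ctrl, 3 in Tcf1KO against Ctrl, and 2 each in DKO against Ctrl, against Id2KO and against Tcf1KO. The shares of all tested genes under the same unadjusted rule were 9.71%, 4.8%, 9.44%, 10.9% and 6.73% in that order. The voom test on recovered reads also called 0 of the 10 in each of the 5 comparisons. The median log2 fold change of the 10 was 0.10, -0.12, -0.02, -0.08 and 0.14 in the same order, beside medians of all tested genes between -0.0090 and -0.0016.

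**Figure D2:**
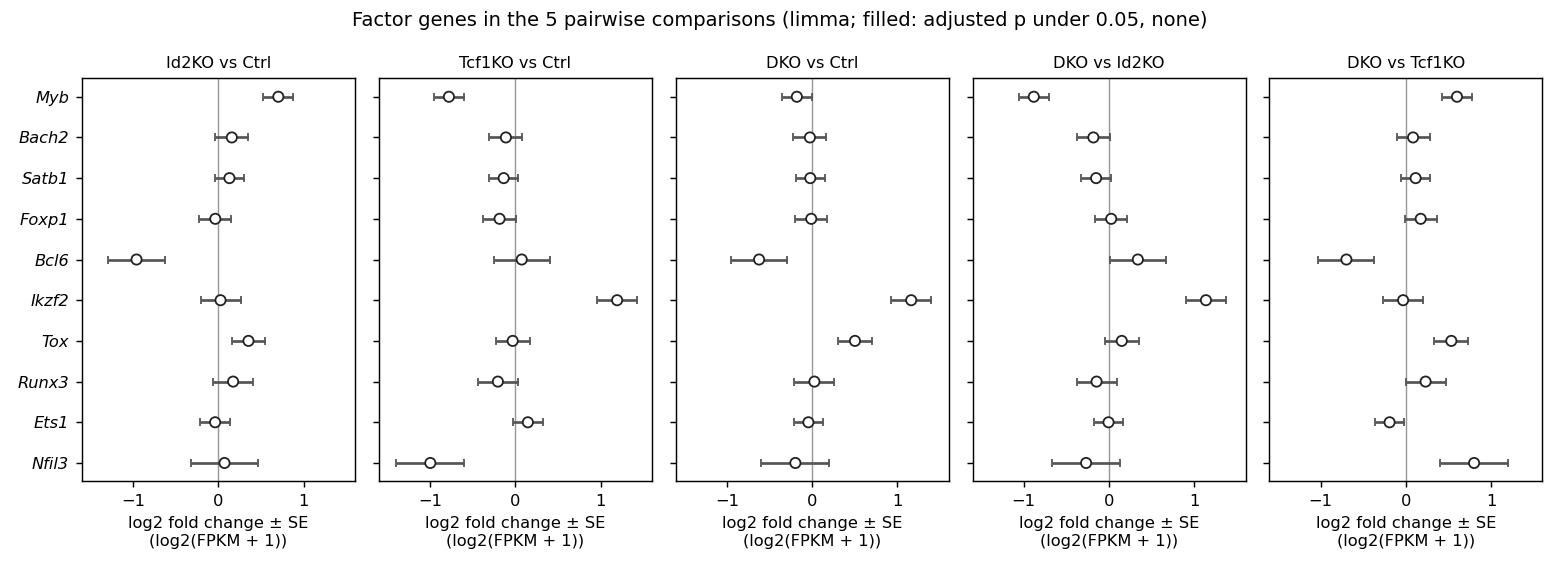
Log2 fold changes of the 10 genes on the log2(FPKM + 1) scale in the 5 comparisons between pairs of groups, with bars of 1 SE from the limma fit. Open points did not pass the adjusted threshold of 0.05, and all are open. The farthest from 0 are Ikzf2 in Tcf1KO against Ctrl (1.19) and in DKO against Ctrl (1.16) and against Id2KO (1.14).

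Ikzf2 (ENSMUSG00000025997, GRCm38 chromosome 1, 69531214 to 69687245, minus strand) had the smallest unadjusted p of the 10 genes over the 5 comparisons between pairs of groups. It measured 23.4, 29.8 and 35.1 FPKM in DKO libraries and 10.9, 9.80 and 18.8 FPKM in Id2KO libraries. It measured 25.7, 35.5 and 28.7 FPKM in Tcf1KO libraries and 12.4, 12.6 and 12.2 FPKM in Ctrl libraries. Every library of the groups with floxed Tcf7 and Cre lay above every library of the other groups, and Id2KO replicate 3 was the highest of the lower set. The log2 fold change was 1.16 ± 0.23 in DKO against Ctrl (limma, adjusted p = 0.105), 1.14 ± 0.23 in DKO against Id2KO (adjusted p = 0.120) and 1.19 ± 0.23 in Tcf1KO against Ctrl (adjusted p = 0.249). Ranked by p, Ikzf2 stood at place 53, 55 and 18 of 12384 in these comparisons. Without Id2KO replicate 3 it passed in DKO against Id2KO (1.40, adjusted p = 0.0299) and in DKO against Ctrl (1.16, adjusted p = 0.0359). Id2KO and Ctrl libraries overlapped.

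Myb (ENSMUSG00000019982, GRCm38 chromosome 10, 21124935 to 21160984, minus strand) encodes c-Myb, a factor that haematopoietic and early lymphoid progenitors need. Its promoter window in RefSeq (GRCm38.p6, chr10:21160935-21161234, minus strand, 250 bases before to 50 after the start) is printed because Myb is one of the genes with the smallest p. The window was searched on both strands for the E-box cores CAGCTG and CACCTG, letters that E proteins can bind, and for the TCF core written as CTTTGAA or CTTTGAT. It holds none of them, so no base is in capitals, and this says only that these letters are not in this window.
Myb promoter: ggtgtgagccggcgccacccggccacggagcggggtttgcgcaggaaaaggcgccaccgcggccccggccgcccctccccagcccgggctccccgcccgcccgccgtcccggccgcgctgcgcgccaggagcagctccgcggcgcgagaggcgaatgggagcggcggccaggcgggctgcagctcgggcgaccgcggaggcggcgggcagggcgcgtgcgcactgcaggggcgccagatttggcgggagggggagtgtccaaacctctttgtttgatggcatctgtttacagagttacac
Of all 32851 promoter windows of this table, 16.3% hold CAGCTG, 20.2% CACCTG, 5.14% CTTTGAA and 3.73% CTTTGAT. RefSeq windows were matched for 7 of the 10 genes, 15 windows in all. Of these, CACCTG stood in 2 windows of Satb1 and in 1 each of Foxp1 and Runx3, CAGCTG in 1 window each of Satb1 and Nfil3, and CTTTGAA in 1 window of Foxp1.

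Myb measured 6.64, 6.91 and 9.12 FPKM in DKO libraries and 15.6, 12.1 and 16.6 FPKM in Id2KO libraries. It measured 5.25, 4.62 and 4.02 FPKM in Tcf1KO libraries and 7.86, 9.43 and 8.61 FPKM in Ctrl libraries. The Id2KO libraries were the highest and the Tcf1KO libraries the lowest of all, neither overlapping another group, and DKO and Ctrl libraries overlapped. The log2 fold change was -0.88 ± 0.18 in DKO against Id2KO (limma, adjusted p = 0.110), 0.60 ± 0.18 in DKO against Tcf1KO (adjusted p = 0.410) and -0.18 in DKO against Ctrl (adjusted p = 0.822). It was 0.70 ± 0.18 in Id2KO against Ctrl (adjusted p = 0.206) and -0.78 ± 0.18 in Tcf1KO against Ctrl (adjusted p = 0.324).

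Since Ikzf2 and Myb differed in the same direction for Tcf7 in both Id2 backgrounds, averaged contrasts were added after the values were seen. The Tcf7 average sets DKO and Tcf1KO against Id2KO and Ctrl, and the Id2 average sets DKO and Id2KO against Tcf1KO and Ctrl. They are not independent of the comparisons above and share all their libraries. Ctrl alone has no Cre, so each average also carries the presence of Cre in part. In the Tcf7 average 2 of the 10 genes passed with limma, where 0.371% of all tested genes did, and 3 of 10 had an unadjusted p under 0.05, where 9.74% did. The 2 were Ikzf2 and Myb, the genes for which the contrast was added. Their p-values, and the shares of all genes set beside them here, take no account of that choice. The third, beside Ikzf2 and Myb, was Nfil3 (-0.63 ± 0.28, adjusted p = 0.512). Ikzf2 rose, with a log2 fold change of 1.16 ± 0.17 (adjusted p = 0.0208). Its 6 libraries with Cre and floxed Tcf7 had 23.4, 29.3 and 35.5 FPKM as lowest, median and highest value, against 9.80, 12.3 and 18.8 FPKM in the other 6. These 6 and 6 libraries did not overlap, as was the case for 0.88% of all tested genes. Myb fell, with a log2 fold change of -0.83 ± 0.12 (adjusted p = 0.0255), and its 6 and 6 libraries overlapped, at 4.02 to 9.12 against 7.86 to 16.6 FPKM.

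Neither call held in every fit that left out 1 library, and such fits have fewer degrees of freedom. Myb also lost its call in a fit without 3 libraries of low array weight (Ctrl replicate 2, DKO replicate 3 and Id2KO replicate 3), added after seeing the data. In that fit the limma adjusted p was 0.0547 for Myb and 0.0218 for Ikzf2. Of the 12 fits that each left out 1 library, 3 kept Ikzf2 past the threshold, those without DKO replicate 1, Id2KO replicate 3 or Tcf1KO replicate 1. Without Ctrl replicate 1, 2 or 3 its adjusted p was 0.0657, 0.0512 or 0.0684, without DKO replicate 2 or 3 it was 0.0583 or 0.0561, without Id2KO replicate 1 or 2 it was 0.0663 or 0.0596, and without Tcf1KO replicate 2 or 3 it was 0.0584 or 0.0658. Its log2 fold change stayed between 1.08 and 1.30 in these 12 fits. Myb likewise passed in 3 of 12, without DKO replicate 3, Id2KO replicate 3 or Tcf1KO replicate 1. For Myb the adjusted p was 0.0657, 0.0598 or 0.0684 without Ctrl replicate 1, 2 or 3, 0.0591 or 0.0634 without DKO replicate 1 or 2, 0.0785 or 0.0521 without Id2KO replicate 1 or 2, and 0.0758 or 0.0872 without Tcf1KO replicate 2 or 3. Its log2 fold change stayed between -0.89 and -0.79. In the Id2 average 0 of the 10 passed with limma, where 0.299% of all tested genes did, and 3 of 10 had an unadjusted p under 0.05, where 10.9% of all genes did. These were Myb (0.65 ± 0.12, adjusted p = 0.0698), Bcl6 (-0.83 ± 0.23, adjusted p = 0.208) and Tox (0.44 ± 0.14, adjusted p = 0.272). The voom test on recovered reads called 1 of the 10 there, Myb (0.74, adjusted p = 0.034). Ikzf2 had a log2 fold change of -0.0040 in this contrast (adjusted p = 0.998).

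**Figure D3:**
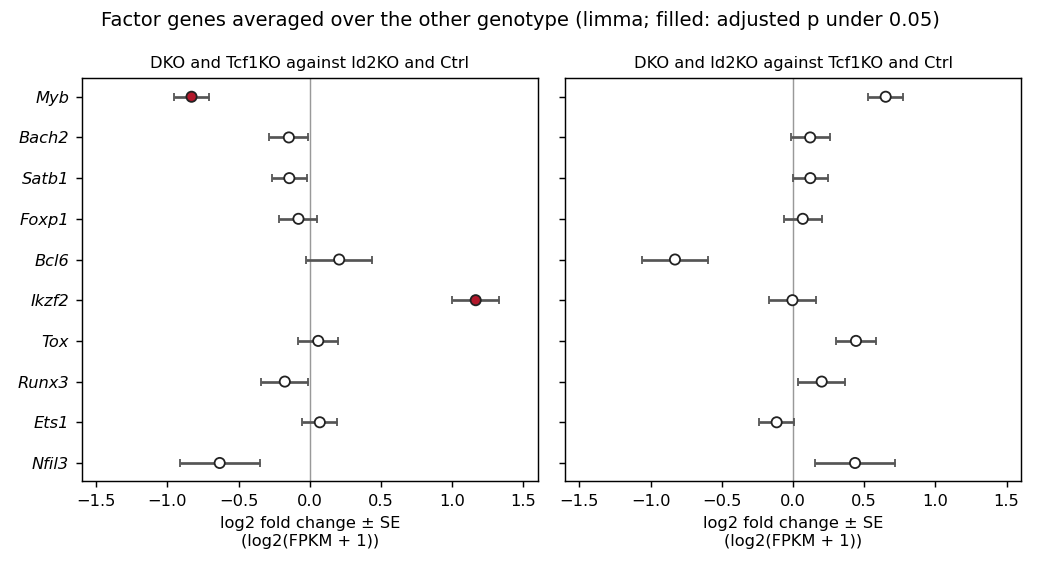
Log2 fold changes of the 10 genes with bars of 1 SE on the log2(FPKM + 1) scale, for the Tcf7 average (left panel) and the Id2 average (right panel), with filled points where the limma adjusted p was under 0.05. Ikzf2 (1.16) and Myb (-0.83) are filled on the left, and no point is filled on the right, where Bcl6 lies lowest at -0.83.

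Bcl6 (ENSMUSG00000022508, GRCm38 chromosome 16, 23965052 to 23988852, minus strand) encodes a repressor of germinal centre B cells, follicular helper T cells and memory T cells. It measured 1.29, 2.70 and 1.87 FPKM in DKO libraries and 2.69, 0.340 and 1.44 FPKM in Id2KO libraries. It measured 3.08, 3.91 and 4.18 FPKM in Tcf1KO libraries and 4.03, 2.90 and 3.53 FPKM in Ctrl libraries. All 6 libraries of the groups with Cre and floxed Id2 lay at or below 2.70 FPKM and the other 6 at or above 2.90 FPKM, a separation seen in 0.896% of all tested genes. The gap between these libraries was small, and Id2KO replicate 2 rested on 36 reads. The log2 fold change was -0.96 ± 0.33 in Id2KO against Ctrl (limma, adjusted p = 0.349), -0.62 ± 0.33 in DKO against Ctrl (adjusted p = 0.605) and -0.70 ± 0.33 in DKO against Tcf1KO (adjusted p = 0.753). Without Id2KO replicate 2 the first of these was -0.57 (adjusted p = 0.674), and it was -1.52 with a pseudocount of 0.1 (adjusted p = 0.377) and -1.63 by voom on recovered reads (adjusted p = 0.314). By voom the Id2 average of Bcl6 was -1.31 (adjusted p = 0.127).

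Tox (ENSMUSG00000041272, GRCm38 chromosome 4, 6686353 to 6991557, minus strand) encodes an HMG-box factor needed for NK cell and helper T cell development. It measured 14.2, 11.7 and 15.7 FPKM in DKO libraries and 10.4, 15.03 and 12.02 FPKM in Id2KO libraries. It measured 9.57, 8.76 and 9.40 FPKM in Tcf1KO libraries and 10.97, 6.995 and 10.9 FPKM in Ctrl libraries. The DKO libraries lay above those of Tcf1KO and Ctrl and overlapped those of Id2KO. The log2 fold change was 0.50 ± 0.20 in DKO against Ctrl (limma, adjusted p = 0.470) and 0.53 ± 0.20 in DKO against Tcf1KO (adjusted p = 0.621). Without Ctrl replicate 2 the value against Ctrl was 0.31, and without the 3 libraries of low array weight it was 0.22. Exons of Tox overlap those of the antisense gene Gm11802 over 260 bases, and Gm11802 itself averaged 9.30 ± 11.01 FPKM in DKO, 5.37 ± 4.30 in Id2KO, 2.32 ± 1.26 in Tcf1KO and 2.89 ± 1.96 in Ctrl cells. Whether counting used the strand is not given in the sources used here, so reads in that stretch cannot be told apart.

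Nfil3 (ENSMUSG00000056749, GRCm38 chromosome 13, 52967209 to 52981073, minus strand) encodes E4BP4, a leucine zipper factor needed for NK cells to develop in the bone marrow. It measured 21.5, 15.9 and 18.3 FPKM in DKO libraries and 15.7, 22.3 and 31.9 FPKM in Id2KO libraries. It measured 11.3, 6.62 and 13.9 FPKM in Tcf1KO libraries and 14.3, 15.9 and 41.7 FPKM in Ctrl libraries. The Tcf1KO libraries were the lowest of all and overlapped no other group, and Ctrl replicate 3 was the highest library. The log2 fold change was -0.996 ± 0.40 in Tcf1KO against Ctrl (limma, adjusted p = 0.983) and 0.80 ± 0.40 in DKO against Tcf1KO (adjusted p = 0.779). Without Ctrl replicate 3 the value in Tcf1KO against Ctrl was -0.53.

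The other 5 genes had no unadjusted p under 0.05 in any of these comparisons, and 4 of them overlapped in every pair of groups tested. Satb1 (chromosome 17, 51736187 to 51833290, minus strand), a genome organiser of thymocytes, averaged 7.27 ± 1.21 FPKM in DKO, 8.20 ± 1.41 in Id2KO, 6.61 ± 0.634 in Tcf1KO and 7.35 ± 0.629 in Ctrl cells. Bach2 (chromosome 4, 32238804 to 32586108, plus strand), a repressor of effector programmes in T and B cells, averaged 3.06 ± 0.763 FPKM in DKO, 3.55 ± 0.0333 in Id2KO, 2.80 ± 0.514 in Tcf1KO and 3.11 ± 0.640 in Ctrl cells. Foxp1 (chromosome 6, 98925338 to 99522721, minus strand), a forkhead factor of naive T cells and early B cells, averaged 5.66 ± 1.68 FPKM in DKO, 5.41 ± 0.0711 in Id2KO, 4.79 ± 0.445 in Tcf1KO and 5.59 ± 0.669 in Ctrl cells. The highest Tcf1KO library of Foxp1 (5.12 FPKM) was just below the lowest Ctrl library (5.15 FPKM). Runx3 (chromosome 4, 135120652 to 135177990, plus strand), a factor of NK cells and cytotoxic T cells, averaged 25.8 ± 1.09 FPKM in DKO, 28.8 ± 4.41 in Id2KO, 22.3 ± 6.24 in Tcf1KO and 26.002 ± 7.64 in Ctrl cells. Ets1 (chromosome 9, 32636221 to 32757820, plus strand), which NK cell development also needs, averaged 28.7 ± 2.64 FPKM in DKO, 29.1 ± 5.41 in Id2KO, 33.0 ± 3.12 in Tcf1KO and 29.9 ± 4.94 in Ctrl cells. Exons of Bach2 overlap the antisense gene Bach2os, at most 2.04 FPKM, and exons of Foxp1 overlap Gm20696 on the same strand, at most 7.67 FPKM.

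Counted over the 10 genes, 2 groups had no overlapping libraries for 4 genes in DKO against Tcf1KO (Myb, Tox and Nfil3 higher, Bcl6 lower), where the same held for 12.6% of all tested genes. It held for 2 genes in DKO against Id2KO (14.7% of all tested genes), for 3 in DKO against Ctrl (13.5%), for 2 in Id2KO against Ctrl (13.9%) and for 4 in Tcf1KO against Ctrl (10.7%). The interaction sets the difference of DKO from Tcf1KO against that of Id2KO from Ctrl, and asks whether the Id2 difference depends on Tcf7. Only the second difference carries the presence of Cre, so the interaction carries it too. It also carries an unequal fall of Id2 RNA, since Id2 itself had an interaction of 1.58 ± 0.23 (limma, adjusted p = 0.0850). With limma 0 of the 10 passed there, where 0.0% of all tested genes did, 0 had an unadjusted p under 0.05, where 5.94% of all genes did, and voom called 0. Its value nearest to the threshold was 0.73 ± 0.56 for Nfil3 (adjusted p = 0.944).

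The genes whose log2 values followed Ikzf2, Myb and Bcl6 most closely were found by Pearson's r over the 12 libraries, as a description without a test, since these libraries share groups and depth. For Ikzf2 they were the T cell receptor complex gene Cd3e (r = 0.969, Spearman's rho = 0.916), Tnfsf10, the gene of the death ligand TRAIL (r = 0.967, rho = 0.965), and the T cell receptor alpha constant gene Trac (r = 0.945, rho = 0.895). Within groups, after the group means were taken off, these values of r were 0.796, 0.848 and 0.745. Cd3e measured 351, 414 and 416 FPKM in DKO libraries, while Id2KO libraries had 85.8, 111 and 218 FPKM. It measured 320.3, 386 and 419 FPKM in Tcf1KO libraries, while Ctrl libraries had 147, 139 and 111 FPKM. Tnfsf10 averaged 20.4 ± 5.31 FPKM in DKO, 8.78 ± 2.48 in Id2KO, 20.5 ± 4.88 in Tcf1KO and 9.73 ± 0.801 in Ctrl cells. As with Ikzf2, Id2KO replicate 3 was the highest of the Id2KO and Ctrl libraries for Cd3e.

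T cell markers differed between the groups beside Ikzf2. The summed level of 16 such genes, none at 0 in any library, was 1944 to 2407 FPKM in DKO, 1377 to 1836 in Id2KO, 1494 to 1986 in Tcf1KO and 1068 to 1221 in Ctrl libraries. Of the 15 tested, 1 rose in a comparison between pairs of groups, Cd3d in Id2KO against Ctrl (1.39 ± 0.20, limma, adjusted p = 0.0183). In that comparison Ikzf2 had a log2 fold change of 0.03 (adjusted p = 0.991), Cd3e -0.04 (adjusted p = 0.982) and Trac 0.27 (adjusted p = 0.806). Of the 15, 10 were higher and 5 lower in it, and 4 had an unadjusted p under 0.05, as did 9.71% of all tested genes. In the Tcf7 average 2 of the 15 rose with limma, Cd3e (1.55 ± 0.20, adjusted p = 0.0162) and Trac (1.23 ± 0.19, adjusted p = 0.0255). There 12 of the 15 were higher, 3 were lower, and 12 had an unadjusted p under 0.05, as did 9.74% of all tested genes. The same unadjusted count was 11 in Tcf1KO against Ctrl (4.8% of all tested genes) and 11 in DKO against Ctrl (9.44%). Foxp3, the defining factor of regulatory T cells, reached at most 0.17 FPKM in any library. Of the other T cell markers, Cd8a averaged 11.2 ± 2.74 FPKM in DKO, 3.36 ± 3.09 in Id2KO, 11.7 ± 4.50 in Tcf1KO and 2.78 ± 0.851 in Ctrl cells. Higher in the Tcf7 average without passing were Cd8a (1.70 ± 0.32, limma, adjusted p = 0.0586), Cd5 (1.20 ± 0.28, adjusted p = 0.147) and Bcl11b (1.11 ± 0.26, adjusted p = 0.148). Of the 3 that were lower there, Trbc1 lay farthest from 0 (-0.45 ± 0.15, adjusted p = 0.319). NK cells can transcribe several genes of this list. The part of these genes in the Ikzf2 result was not tested, and in bulk samples more cells of a type and more RNA per cell cannot be told apart. Ncr1, the gene that the Cre is named after, fell in the Tcf7 average (-1.10 ± 0.16, limma, adjusted p = 0.0208). It averaged 78.1 ± 18.9 FPKM in DKO, 124 ± 33.3 in Id2KO, 64.8 ± 5.14 in Tcf1KO and 192 ± 20.8 in Ctrl cells. Every group with Cre thus averaged below Ctrl, the only group without it. Ncr1 passed with limma in none of the 5 comparisons between pairs of groups. Against Ctrl it had -0.66 ± 0.22 in Id2KO (adjusted p = 0.346), -1.55 ± 0.22 in Tcf1KO (adjusted p = 0.143) and -1.30 ± 0.22 in DKO (adjusted p = 0.0567). Between groups with Cre it had -0.65 ± 0.22 in DKO against Id2KO (adjusted p = 0.311) and 0.24 ± 0.22 in DKO against Tcf1KO (adjusted p = 0.903). The part of Cre in these values was not tested. With Eomes, Ncr1 was 1 of 2 among 12 NK identity markers that fell in the Tcf7 average. Of the 12, 10 were lower and 8 had an unadjusted p under 0.05, and their sums were 2664 to 3778 FPKM in DKO, 2570 to 3515 in Id2KO, 2686 to 3018 in Tcf1KO and 3556 to 4101 in Ctrl libraries. The part of these genes in the Ikzf2 and Myb results was not tested.

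The genes nearest to Myb were Dennd3 (r = 0.881, rho = 0.797), Cpne7 (r = 0.871, rho = 0.944) and Arl4d (r = 0.869, rho = 0.909). After the group means were taken off, r was -0.416, 0.203 and 0.479 for these genes. Progenitor markers summed to 6.45 to 45.0 FPKM in DKO, 5.31 to 9.72 in Id2KO, 8.45 to 99.9 in Tcf1KO and 17.5 to 83.8 in Ctrl libraries. By group means, the sums in DKO, Tcf1KO and Ctrl cells were carried by granulocyte and basophil genes such as Elane, Mpo and Gata2. In Id2KO cells Kit had the highest mean of the list (3.44 ± 0.952 FPKM), with Gata2 at 2.75 ± 2.45, Mpo at 0.277 ± 0.253 and Elane at 0. Kit itself had its highest group mean in Id2KO cells, as Myb did, but differed little from Ctrl there (0.26 ± 0.23, limma, adjusted p = 0.774). Its lowest group mean was in DKO cells (1.01 ± 0.102 FPKM), and that of Myb in Tcf1KO cells (4.63 ± 0.612 FPKM). The genes nearest to Bcl6 were Msl1 (r = 0.893, rho = 0.790), Prdm1, the gene of the maturation factor Blimp-1 (r = 0.885, rho = 0.881), and Prkcb, a protein kinase C gene (r = 0.871, rho = 0.762). Within groups r was 0.828, 0.743 and 0.818. Prdm1 averaged 3.79 ± 0.715 FPKM in DKO, 2.08 ± 0.954 in Id2KO, 6.89 ± 0.934 in Tcf1KO and 8.40 ± 2.76 in Ctrl cells. Bcl6 and Prdm1 are known to repress each other in B cells, and here both were lower in the groups with Cre and floxed Id2. Myeloid cells also express Bcl6, and their markers summed to 366 to 842 FPKM in DKO, 99.0 to 1080 in Id2KO, 1227 to 4226 in Tcf1KO and 923 to 3582 in Ctrl libraries. Their part in the Bcl6 values was not tested.

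**Figure D4:**
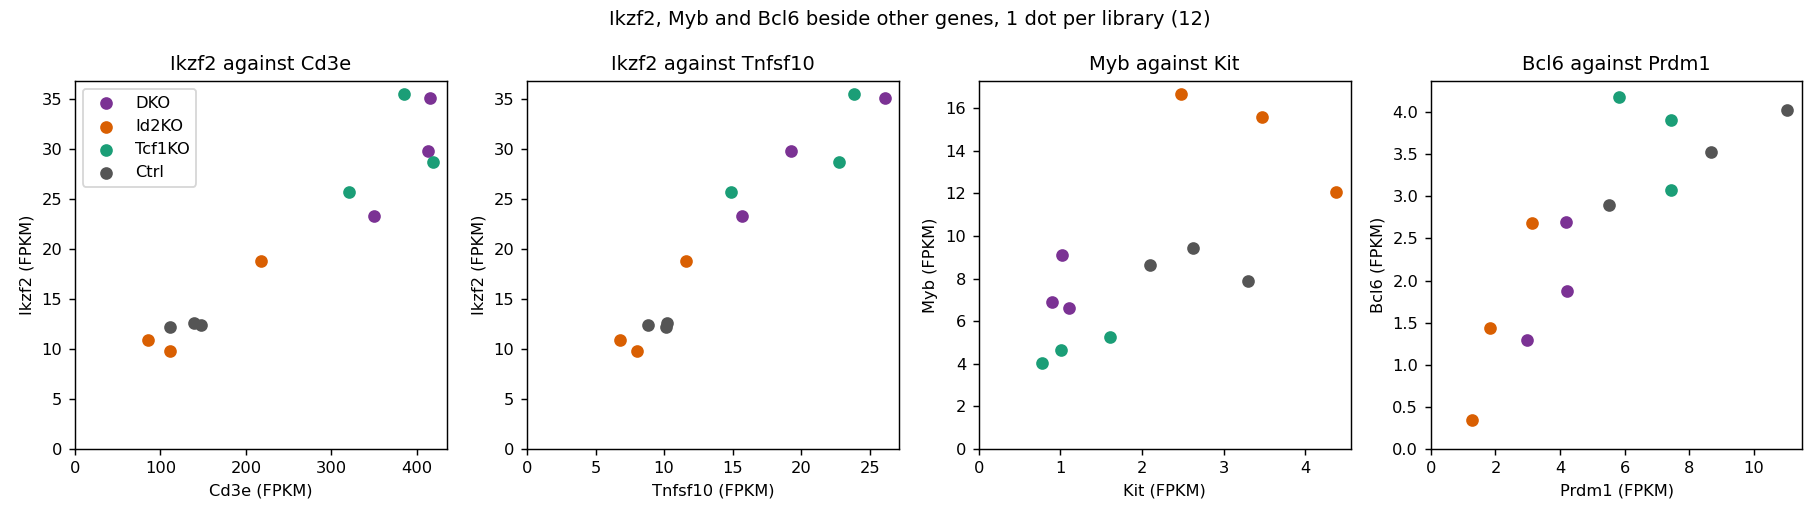
FPKM per library, 1 dot for each of the 12 libraries coloured by group, of Ikzf2 against Cd3e and against Tnfsf10, of Myb against Kit, and of Bcl6 against Prdm1. DKO and Tcf1KO libraries lie at the upper right in both Ikzf2 panels with Id2KO replicate 3 nearest to them, and Bcl6 and Prdm1 are both lowest in Id2KO replicate 2.

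Other genes of the same pathways were taken from lists, chosen with earlier results of these data known, and described by counts. Of 29 paralogues and partners of the 10 genes 20 were tested, and 0 passed with limma in any of the 5 comparisons, with 1, 0, 1, 1 and 0 of them at an unadjusted p under 0.05 in Id2KO against Ctrl, Tcf1KO against Ctrl, and DKO against Ctrl, Id2KO and Tcf1KO. The shares of all tested genes under that rule were 9.71%, 4.8%, 9.44%, 10.9% and 6.73% in the same order. The Ikaros family genes closest to Ikzf2 were Ikzf1, at 24.6 ± 1.78 FPKM in DKO, 30.5 ± 4.31 in Id2KO, 22.6 ± 0.407 in Tcf1KO and 26.5 ± 4.41 in Ctrl cells, and Ikzf3, at 51.2 ± 7.07, 40.7 ± 8.59, 59.1 ± 15.1 and 57.2 ± 18.4 FPKM in the same order. Neither passed in the Tcf7 average (adjusted p = 0.510 and 0.789). The smallest p-values of this list belonged to Etv6, Runx1, Tef and Ets2, of which Etv6 averaged 1.57 ± 0.699 FPKM in DKO, 2.34 ± 0.173 in Id2KO, 2.28 ± 0.790 in Tcf1KO and 3.18 ± 0.501 in Ctrl cells.

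Of 28 genes of a naive and memory lymphocyte list, which includes 6 of the 10 genes followed here, 27 were tested. In Id2KO against Ctrl 2 rose and 0 fell, where 0.178% of all tested genes passed. The median log2 fold change was 0.38, beside -0.0079 over all tested genes. Those that rose were Id3, an inhibitor related to Id2 (2.56 ± 0.33, adjusted p = 0.0102), and Tcf7 (1.04 ± 0.16, adjusted p = 0.0279). In DKO against Ctrl Id3 alone rose (2.05 ± 0.33, adjusted p = 0.0468). In DKO against Tcf1KO none passed with limma, and 11 had an unadjusted p under 0.05, where 6.73% of all tested genes did. There 22 of 27 were higher and the median was 0.42, beside -0.0065 over all tested genes. In the Id2 average 4 rose, Id3, Tcf7, and the chemokine receptor genes Cxcr5 (1.53 ± 0.22, adjusted p = 0.0231) and Cxcr3 (0.81 ± 0.13, adjusted p = 0.0300). None of the 6 genes followed here that stand in this list was among the genes that rose. In the Tcf7 average the only gene of the list that passed was Myb.

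Of 22 genes of an early lymphoid progenitor list 14 were tested, and 0 passed with limma in the 5 comparisons between pairs of groups. In the Tcf7 average 2 fell, Myb and Kit, the gene of the stem cell factor receptor (-0.96 ± 0.16, adjusted p = 0.0385). Kit averaged 1.01 ± 0.102 FPKM in DKO, 3.44 ± 0.952 in Id2KO, 1.12 ± 0.431 in Tcf1KO and 2.67 ± 0.602 in Ctrl cells. Kit is also a marker of mast cells and progenitors, and basophil and mast cell markers summed to 57.8 to 595 FPKM in DKO, 19.1 to 97.2 in Id2KO, 51.9 to 755 in Tcf1KO and 169 to 635 in Ctrl libraries. Of 16 effector and maturation factors 15 were tested, and Id2, the targeted gene, was the only one that passed in a comparison between pairs of groups. In Id2KO against Ctrl 6 of the 15, Id2 included, had an unadjusted p under 0.05, where 9.71% of all tested genes did. There 10 were lower and 5 higher, and the median was -0.44, beside -0.0079 over all tested genes. Eomes, a T-box factor of NK cells, fell in the Tcf7 average (-0.69 ± 0.12, adjusted p = 0.0454), at 25.7 ± 1.39 FPKM in DKO, 39.8 ± 8.82 in Id2KO, 26.6 ± 1.70 in Tcf1KO and 47.3 ± 6.33 in Ctrl cells. Prdm1 fell in the Id2 average (-1.17 ± 0.19, adjusted p = 0.0341). Of the 7 E protein and Id genes 6 were tested, and in that contrast Id3 rose, Id2 fell and the E protein genes did not pass, Tcf12 with 0.22 ± 0.10 (adjusted p = 0.428) and Tcf4 with -0.26 ± 0.14 (adjusted p = 0.567).

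**Figure D5:**
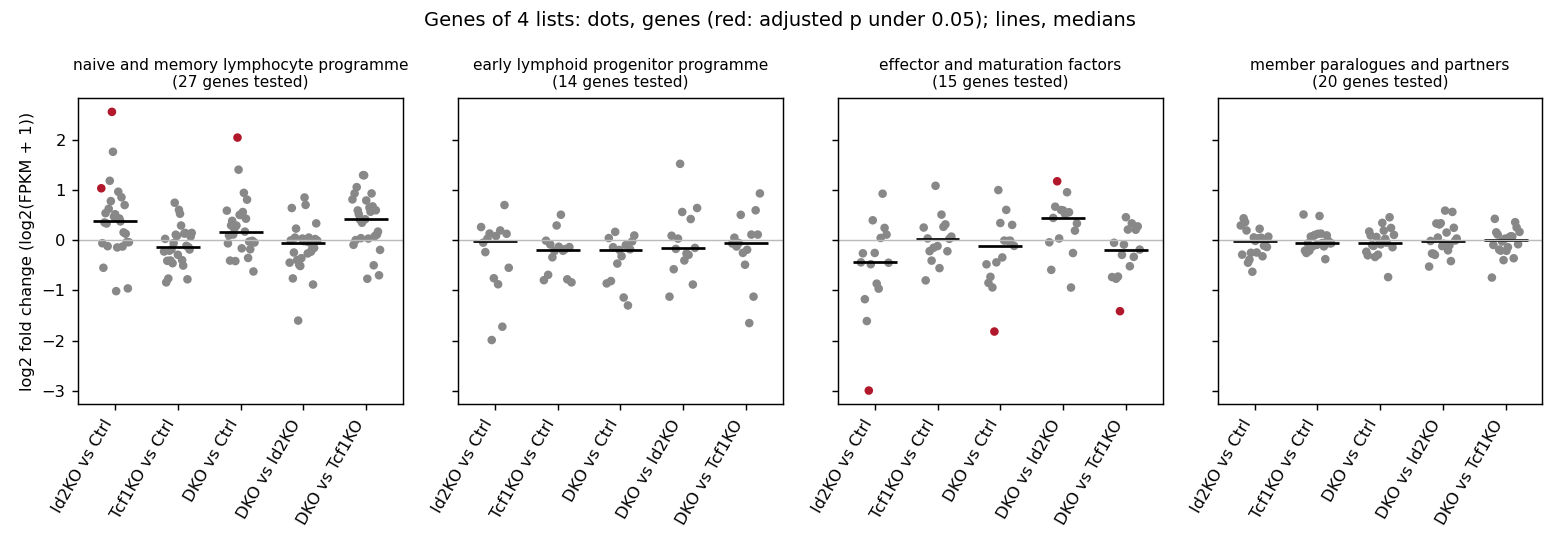
Log2 fold changes on the log2(FPKM + 1) scale of the tested genes of 4 lists in the 5 comparisons between pairs of groups, with each dot a gene, red where the limma adjusted p was under 0.05, and lines at the medians. The naive and memory list has medians of 0.38 in Id2KO against Ctrl and 0.42 in DKO against Tcf1KO, and the medians of the paralogues and partners lie between -0.056 and 0.0044.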

How the data were processed

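RNA of 12 bulk libraries of sorted NK cells, 3 per group, was read from 1 table of FPKM values, deposited by the authors and used unaltered. Named in the submitters' processing notes, with no role or order, are the build mm10, edgeR, HTSeq 0.6.1, TopHat2 2.1.0 and Trimmomatic 0.33; the labels' protocols give total RNA and an Ovation Ultralow library. For 32919 of the gene IDs, GENCODE M21 (GRCm38) gave a symbol and a position. The 10 genes and all lists were chosen with earlier results of these data known.

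The 12384 genes that reached FPKM 1 in 3 libraries or more were fitted as log2(FPKM + 1) over the 12 libraries, in R 4.3.3 with limma 3.58.1 (two-sided moderated test, eBayes with a variance trend). Group was the only term. With 3 libraries against 3 an exact permutation test cannot reach 0.05, so none was run. Named genes were the 10, Id2 and Tcf7, of each list the genes that passed and up to 4 more with the smallest p, and, for each of the 3 of the 10 genes with the smallest p, the 3 with the highest r, passing over Gm and Rik names. Ikzf1, Ikzf3, Foxp3, Pax5, Ebf1, Cd5 and Bcl11b were named after their values were seen.

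Whole reads were recovered from the FPKM steps for 23707 of 23707 genes above 0, within 0.001 reads. Mitochondrial rRNA took 23.6% to 32.4% of them, which lowers the reads left for other genes. They were used for voom alone, over 15059 genes with 10 or more reads in at least 3 libraries. The averaged contrasts, voom and a fit without 3 libraries were chosen after seeing the data. Figures were drawn with Python 3.11.15 and matplotlib 3.10.9.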

Additional observations from a re-analysis of the deposited data

How the results depend on the processing

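The settings varied were a pseudocount of 0.1, no filter on low values, median scaling, a fit of only the groups compared, the replicate number as a block and each library left out in turn. Voom on recovered reads and a fit without Ctrl replicate 2, DKO replicate 3 and Id2KO replicate 3, the libraries with the lowest array weights, were added after seeing the data. No difference of the 10 genes with an unadjusted p under 0.05 turned its direction in any of them. Of the 49 other pairs of gene and planned contrast, 0 were called in any setting and 28 changed sign in some, the largest of these at 0.34. Of 14 such pairs in the averaged contrasts 0 were called and 4 changed sign. Of the 10 genes, the replicate block left 1 called in the Tcf7 average (Ikzf2, adjusted p = 0.0309, with Myb at 0.0522), the fit without 3 libraries left 1 (Ikzf2, 0.0218, with Myb at 0.0547), and voom called 1 in the Id2 average. With each library left out, 0 to 2 were called in the Tcf7 average, 0 to 1 in DKO against Ctrl and 0 to 1 in DKO against Id2KO.

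Counts over all genes moved more. In Id2KO against Ctrl 22 were called, 2 with only the compared groups, 8 without 3 libraries, and 13 to 27 with each library left out. In Tcf1KO against Ctrl 0 were called, 1 with no filter, 1 with only the compared groups, 4 without 3 libraries, 4 by voom, and 0 to 3 with each left out. In DKO against Ctrl 18 were called, 4 with no filter, 1 with only the compared groups, 0 without 3 libraries, and 1 to 27 with each left out. In DKO against Id2KO 15 were called, 0 with only the compared groups, and 2 to 31 with each left out. In DKO against Tcf1KO 7 were called, 4 with the pseudocount of 0.1, 4 with no filter, 1 with only the compared groups, 15 with the replicate block, 2 without 3 libraries, 2 by voom, and 0 to 7 with each left out. The interaction had 0, and 0 to 1 with each left out. The Tcf7 average had 46, 20 with no filter, 28 with the replicate block, and 5 to 69 with each left out. The Id2 average had 37, 13 with no filter, 6 without 3 libraries, 60 by voom, and 13 to 79 with each left out. Fits with fewer libraries have fewer degrees of freedom, and fits with no filter adjust over more genes. Otherwise the cause was not tested.

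The replicate numbers were not taken to pair the samples, since 6 of 18 pairs with the same number, not all, had a correlation of deviations over 0.1, with a range of -0.14 to 0.272, against 3 of 36 other pairs. Among DKO, Tcf1KO and Ctrl libraries 8 of 9 such pairs were above 0, and with Id2KO libraries 2 of 9. A library correlated best with its own number in 17 of 36 cases. At 36 reads, Bcl6 in Id2KO replicate 2 is the least precise value of the 10 genes.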

Other observations

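Ighm, the immunoglobulin mu heavy chain gene and the main part of the B cell marker sum, averaged 261 ± 15.1 FPKM in DKO, 383 ± 33.9 in Id2KO, 169.5 ± 24.8 in Tcf1KO and 190.2 ± 48.6 in Ctrl cells. It rose in the Id2 average (log2 fold change 0.83 ± 0.13, limma, adjusted p = 0.026), a contrast added after seeing the data. The B cell factors Pax5 and Ebf1 reached at most 0.25 and 0.28 FPKM in the same libraries. Ighm and Myb were thus both highest in Id2KO and lowest in Tcf1KO cells by their group means.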
